A study of Mus musculus with 4 samples.

Results

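A set of 10 genes for RNA-binding proteins of the Elavl, Ptbp, Musashi, Rbfox and Nova families was followed in mouse retinal organoids, aggregates of pluripotent cells driven in culture towards retina, at day 6. They are Elavl1, Elavl2, Elavl3, Elavl4, Ptbp1, Ptbp2, Msi1, Msi2, Rbfox2 and Nova1. They were chosen by symbol in the authors' table of FPKM values (fragment counts adjusted for transcript length and depth), where each has 1 row among 55426. All 10 reached the mean of 1 FPKM over the libraries that was required for testing, as did 13931 genes in all.

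Poly(A) RNA of 4 libraries was sequenced, 2 from untreated organoids and 2 from organoids given doxycycline (Dox) at 2 µg/ml for 6 days. Both groups share the line Rx:GFP, Mettl3 KO, with a Dox-inducible HA-METTL3, and a medium with 5% KSR and AGN at 0.1 µM. METTL3 is the enzyme that places N6-methyladenosine on messenger RNA, and the comparison asks which transcripts differ once Dox is added to this line. The sample titles also carry the letters EV, which the labels leave unexplained. All libraries come from 1 line, and the labels do not say whether the 2 libraries of a group came from separate cultures, so p-values measure the spread between these libraries, which may be technical.

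The libraries had fitted depths of 32000000 to 34600000 fragments. Replicates correlated at Pearson's r of 0.987 and 0.990, taken over genes, which are no replicates. Mettl3, the targeted gene, was listed at 40.33 and 37.98 FPKM without Dox and at 45.2 and 46.37 FPKM with it, and did not pass the threshold (adjusted p = 0.122 in limma). Its exons overlap those of a gene on the other strand, and the gene row does not separate the inducible copy from the knocked-out locus, so whether the inducible copy was on cannot be read from this row. Rax, an eye-field gene also called Rx, was listed at 1.12 and 0.82 FPKM without Dox and at 201.14 and 227.98 FPKM with it. Six6, another marker of retinal progenitors, stood near 0 in the untreated libraries, at 0.01 FPKM in both.

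ELAV-like (Hu) proteins bind U-rich stretches of messenger RNA and affect its stability, splicing and translation. Elavl1, also called HuR, is made in nearly all cells, while Elavl2, Elavl3 and Elavl4 are known mainly from neurons and from progenitors about to become neurons. Polypyrimidine tract-binding protein 1 (Ptbp1) holds back neuronal exons in dividing cells, among them an exon of Ptbp2, and the paralogue Ptbp2 takes its place early in neuronal differentiation. Musashi proteins control translation in neural stem cells, Rbfox proteins set alternative exons in neurons and muscle, and Nova proteins set exons of synaptic genes. Splicing itself cannot be read from gene-level values.

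Transcription start regions of the members were searched for E-boxes, short motifs that proneural factors such as Neurog2 are known to bind. This is a description of sequence and tests nothing. The sequences below are the 250 bases before the annotated start, from RefSeq (GRCm38.p6), 5′ to 3′ on the gene's strand, with the E-boxes CAGCTG and CAGATG in capitals. The motifs were chosen with the members' values known. Of the regions that hold neither motif, only the most upstream of Elavl4 is printed. Both were searched on both strands; CAGCTG reads the same on each, CAGATG does not, and neither overlaps the other in these windows.
Elavl3, chr9:22052024-22052273, minus strand: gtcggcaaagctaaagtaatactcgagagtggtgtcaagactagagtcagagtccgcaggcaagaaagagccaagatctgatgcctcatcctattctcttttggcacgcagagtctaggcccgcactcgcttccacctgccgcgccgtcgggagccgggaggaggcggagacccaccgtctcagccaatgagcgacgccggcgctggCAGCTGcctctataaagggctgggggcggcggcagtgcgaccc
Elavl4, most upstream start, chr4:110351912-110352161, minus strand: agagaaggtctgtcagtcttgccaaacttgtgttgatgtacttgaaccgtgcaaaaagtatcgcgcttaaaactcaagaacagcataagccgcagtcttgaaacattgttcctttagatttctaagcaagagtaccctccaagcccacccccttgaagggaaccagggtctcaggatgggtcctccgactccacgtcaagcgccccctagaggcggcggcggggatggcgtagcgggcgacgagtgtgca
Elavl4, next start, chr4:110287528-110287777, minus strand: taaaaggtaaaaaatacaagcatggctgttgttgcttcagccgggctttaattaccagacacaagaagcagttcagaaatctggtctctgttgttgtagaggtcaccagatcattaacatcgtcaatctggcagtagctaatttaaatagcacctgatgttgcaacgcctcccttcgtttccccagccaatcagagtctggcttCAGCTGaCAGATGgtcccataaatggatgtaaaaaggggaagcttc
In Nova1 and Ptbp1 the match is shown with 12 bases on either side.
Nova1, chr12:46818943-46818972, minus strand: gacactgcactgCAGCTGctccgcgccctg
Ptbp1, chr10:79854365-79854394, plus strand: cgctcattggctCAGATGgtatcacgtgcg

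RefSeq start regions were matched for 8 of the 10 genes, 18 regions in all, and not for Msi1 and Rbfox2. CAGCTG was found in 3 of these genes, Elavl3, Elavl4 and Nova1, ending 37 bases before the start of Elavl3, 40 before the next start of Elavl4 and 187 before that of Nova1. A CAGATG site lies next to the CAGCTG of Elavl4, 1 base apart. Further CAGATG sites lie 95 bases before the most downstream start of Elavl4 and 49 bases before the start of Ptbp1, and the most upstream region of Elavl4 holds neither motif. All distances are to RefSeq starts, and other annotations can place a start elsewhere. Exons in GENCODE, of any gene, cover 162 of the 250 bases in Nova1, all 250 in Ptbp1 and 0 in Elavl3. None of the 6 regions of Elavl2 holds either E-box, nor do those of Elavl1, Ptbp2 and Msi2. Of 32851 start regions in the table, 13.0% hold CAGCTG and 14.4% hold CAGATG, so single matches are common. These shares are per region, while the counts above are per gene, and a gene here has up to 6 regions. Of the 18 regions of the members, 12 hold neither motif. A match describes the letters only. No binding was measured.

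With Dox the 3 neuronal Elavl genes and Nova1 were lower and Msi2 was higher, while Elavl1, both Ptbp genes, Msi1 and Rbfox2 did not pass the test. Thus 4 of the 10 genes were called lower and 1 higher at an adjusted p below 0.05 (limma on log2 of FPKM + 1, two-sided, adjusted over all tested genes). Over all tested genes 4.87% were called lower and 4.44% higher, 9.31% in all. In 5 of the 10 genes both Dox libraries lay below both untreated ones, against 26.9% of all tested genes, and in 3 they lay above, against 26.5%. The median log2 fold change was -0.13 over the 10 genes and -0.0042 over all tested genes. For any single gene, 2 libraries against 2 allow no exact two-sided permutation p below 0.333. In these bulk samples, fewer cells of a type and less RNA per cell cannot be told apart.

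**Figure D1:**
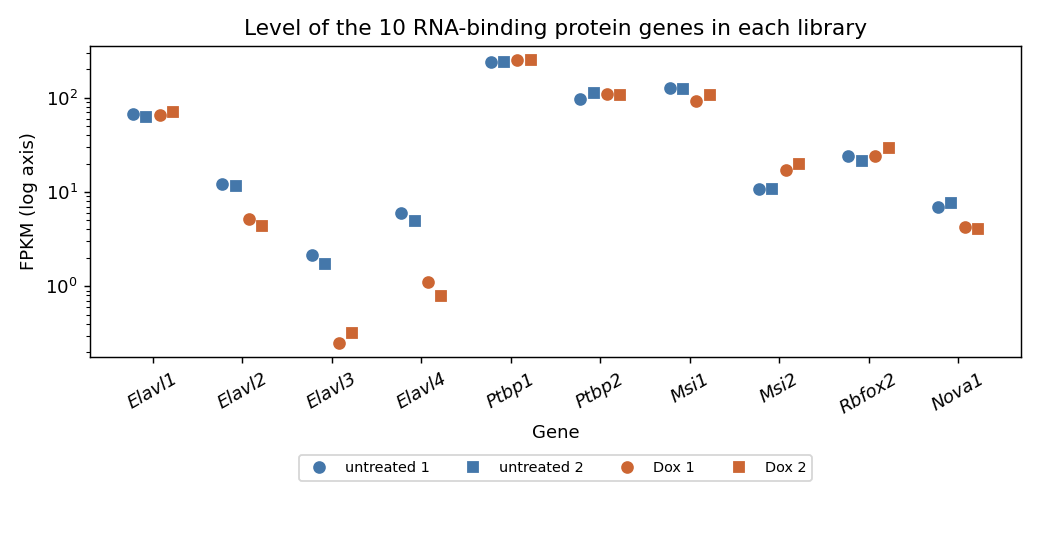
FPKM of each gene (log axis) in the 4 libraries, untreated in blue and Dox in orange, with circles for replicate 1 and squares for replicate 2. The blue and orange points of Elavl2, Elavl3, Elavl4, Msi1, Msi2 and Nova1 are apart. Those of Ptbp1, between 236.98 and 250.23 FPKM, and of Rbfox2 do not overlap either, but the gap is small.

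Elavl4 (HuD), a stabiliser of neuronal messages, had 5.94 and 4.94 FPKM without Dox and 1.11 and 0.78 FPKM with it. Both Dox libraries lay well below both untreated ones. The means were 5.44 ± 0.707 and 0.945 ± 0.233 FPKM (SD, n = 2 each), 5.76-fold higher without Dox, and the log2 fold change on the FPKM + 1 scale was -1.73 (SE 0.151, adjusted p = 0.00206 in limma). On this scale it was the lowest fold change of the 10 genes, while by the ratio of means Elavl3 differed more. The gene lies on chromosome 4, at 110203722 to 110351909 (GRCm38, minus strand), and its exons overlap no other annotated gene.

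Elavl3 (HuC), an early marker of newly formed neurons, was listed at 2.13 and 1.7 FPKM without Dox and at 0.25 and 0.32 FPKM with it. It had the lowest level of the 10 genes in both groups. If all its fragments came from the longest coding transcript, these values stand for about 327 and 281 fragments against 38 and 50. The mean fell from 1.915 to 0.285 FPKM, a ratio of 6.72, and the log2 fold change was -1.18 (SE 0.149, adjusted p = 0.00768 in limma). The pseudocount of 1 FPKM shrinks the fold change of so low a gene, which was -2.39 with a pseudocount of 0.1. Elavl3 reached the required mean through its untreated libraries only, so its place among the tested genes depended on the group where it was high; for Elavl4, too, the Dox mean alone was under 1 FPKM. Without Dox replicate 1 or Dox replicate 2 the call of Elavl3 was lost (adjusted p = 0.058 and 0.0537 in limma). Elavl3 lies on chromosome 9, at 22015005 to 22052023 (GRCm38, minus strand), where 3.72% of its exonic bases overlap another gene.

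Elavl2 (HuB), which is also known from neural progenitors and germ cells, was the most abundant of the 3 neuronal paralogues. Its level was 12.08 and 11.68 FPKM without Dox and 5.14 and 4.33 FPKM with it. The replicates of each group were close, and the groups did not overlap. The log2 fold change was -1.17 (SE 0.108, adjusted p = 0.00256 in limma), from 11.88 ± 0.283 to 4.735 ± 0.573 FPKM (SD, n = 2 each), which is 2.51-fold higher without Dox. Elavl2 lies on chromosome 4, at 91250763 to 91400785 (GRCm38, minus strand), with no overlapping exons.

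Elavl1 (HuR), the broadly expressed member, was listed at 66.73 and 61.72 FPKM without Dox and at 65.34 and 70.82 FPKM with it. Its groups overlapped. The log2 fold change was 0.08, with a 95% interval from -0.11 to 0.28 (adjusted p = 0.578 in limma). That interval lies above those of the 3 neuronal paralogues, the nearest of which is that of Elavl3, from -1.55 to -0.81. Per length, Elavl2 stood at 18.1% and 18.9% of Elavl1 in the untreated libraries and at 7.87% and 6.11% in the Dox libraries. Elavl4 went from 8.9% and 8.0% of Elavl1 to 1.70% and 1.10%, and Elavl3 from 3.19% and 2.75% to 0.383% and 0.452%. The ratios were described per library and not tested.

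**Figure D2:**
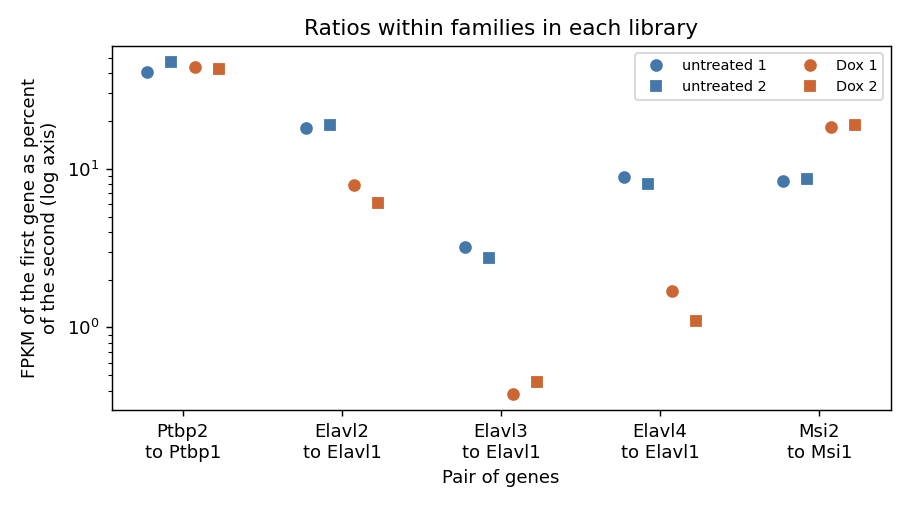
Level of 1 gene as a percentage of a family member (FPKM ratio, log axis) in each library, untreated in blue and Dox in orange. The 3 Elavl ratios are lower and the Msi2 to Msi1 ratio is higher in both Dox libraries, while the Ptbp2 to Ptbp1 ratio lies between 41.0% and 46.7% in all 4.

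Nova1, a splicing factor of synaptic transcripts, was listed at 6.99 and 7.6 FPKM without Dox and at 4.24 and 4 FPKM with it. Both Dox libraries lay below both untreated ones. The gene lies on chromosome 12, at 46694517 to 46818929 (GRCm38, minus strand), and 3.54% of its exonic bases overlap another gene. The log2 fold change was -0.70 (SE 0.102, adjusted p = 0.0135 in limma), from 7.295 ± 0.431 to 4.12 ± 0.170 FPKM (SD, n = 2 each). When any 1 library was left out the adjusted p lay between 0.0703 and 0.103, and without a filter on low values it was 0.0685, so this call rests on all 4 libraries. The paralogue Nova2 was lower in level, at 2.17 and 2.11 FPKM without Dox and 1.02 and 1.21 FPKM with it. Its log2 fold change of -0.57 did not pass (adjusted p = 0.0551 in limma), and 31.7% of its exonic bases overlap a gene on the other strand, which matters if counting ignored strand.

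Msi2, a Musashi protein of stem and progenitor cells, was the only member called higher. It was listed at 10.62 and 10.64 FPKM without Dox and at 17.16 and 20.01 FPKM with it. The untreated replicates were nearly equal, and both Dox libraries lay above them. The log2 fold change was 0.75 (SE 0.0987, adjusted p = 0.00912 in limma), a mean 1.75-fold higher with Dox. Leaving out untreated replicate 1, untreated replicate 2 or Dox replicate 2 gave adjusted p-values of 0.0677, 0.0646 and 0.0607, and the call was lost, as it was without a filter (0.0617). It was kept without Dox replicate 1 (0.0300). Msi2 lies on chromosome 11, at 88339382 to 88718513 (GRCm38, minus strand), and its exons overlap no other annotated gene.

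Msi1, the paralogue best known from neural stem cells, was the next most abundant member after Ptbp1 in the untreated group. Its level was 126.71 and 122.77 FPKM without Dox and 93.13 and 106.34 FPKM with it. Both Dox libraries were lower, yet the change did not pass (log2 fold change -0.32, 95% interval -0.53 to -0.11, unadjusted p = 0.0102, adjusted p = 0.0818 in limma). Per length, Msi2 stood at 8.38% and 8.67% of Msi1 without Dox and at 18.4% and 18.8% with it. The Dox libraries thus had the higher ratio, and the groups did not overlap.

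Ptbp1, the repressor of neuronal exons, had the highest level of the 10 genes in both groups. It was listed at 237.4 and 236.98 FPKM without Dox and at 250.23 and 247.83 FPKM with it. The groups did not overlap, as in 53.4% of all tested genes, but the difference was small, with a log2 fold change of 0.07 and a 95% interval from -0.09 to 0.23 (adjusted p = 0.575 in limma). Of its exonic bases 20.7% overlap 3 genes on the other strand, so its level is uncertain if counting ignored strand.

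Ptbp2, the neuronal paralogue, was already at 97.24 and 110.73 FPKM without Dox and stood at 109.79 and 105.91 FPKM with it. These values overlapped. The log2 fold change was 0.05 (95% interval -0.15 to 0.26, adjusted p = 0.748 in limma). Without untreated replicate 1 it was -0.038, still short of the threshold. Ptbp2 stood at 41.0% and 46.7% of Ptbp1 per length without Dox and at 43.9% and 42.7% with it, a log2 ratio that differed by -0.015 between groups. Ptbp3, the third member of the family, was at 10.32 and 10.97 FPKM without Dox and 11.79 and 11.93 FPKM with it (adjusted p = 0.372 in limma).

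Rbfox2, the Rbfox paralogue that is also found outside neurons, was listed at 23.99 and 21.53 FPKM without Dox and at 24.01 and 29.02 FPKM with it. The groups came within 0.02 FPKM of each other. Its log2 fold change was 0.21 (95% interval -0.08 to 0.49, adjusted p = 0.344 in limma). The neuronal paralogues were below the level required for testing. Rbfox3 (NeuN), a marker of mature neurons, had 0.90 FPKM in each untreated library and 0.43 and 0.44 FPKM with Dox, and without the filter its adjusted p was 0.087 in limma. Rbfox1 was listed at 0.02 and 0.08 FPKM without Dox and at 0.03 and 0.26 FPKM with it, where 3 fragments on its longest coding transcript make 0.031 to 0.033 FPKM. Its values thus stand for about 2 to 24 fragments, and the groups overlapped.

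**Figure D3:**
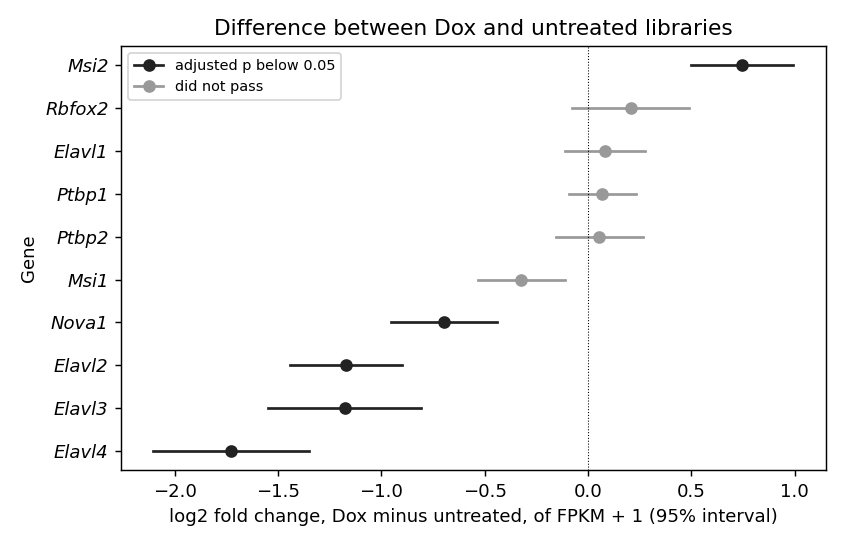
Log2 fold change of FPKM + 1, Dox minus untreated, with its 95% interval from limma (n = 2 libraries each). Elavl4, Elavl3, Elavl2 and Nova1 lie below 0 and Msi2 above it past the threshold (black); the other 5 genes did not pass (grey).

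The order of levels was not the same in the 2 groups. Without Dox it ran Ptbp1, Msi1, Ptbp2, Elavl1, Rbfox2, Elavl2, Msi2, Nova1, Elavl4, Elavl3, and no neighbours overlapped between their 2 libraries. With Dox, Ptbp2 (105.91 to 109.79 FPKM) and Msi1 (93.13 to 106.34 FPKM) overlapped, and Msi2 stood above Elavl2. FPKM is a level per length, so these genes can be set side by side. The summed level of all 10 was 589.83 and 590.29 FPKM in the untreated libraries and 570.4 to 589.36 FPKM in the Dox libraries.

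Profiles over the 4 libraries were compared with those of the called Elavl genes by the Euclidean distance between log2 values. Each gene was first centred on its own mean over the libraries. The members and genes with clone-type names, such as Gm and Rik entries, were left out, and the closest of the remaining genes were listed. For Elavl4 they were Pcp4l1 (distance 0.118) and Irx5 (0.123), for Elavl3 Epha10 (0.068) and Rerg (0.072), and for Elavl2 Pla2g7 (0.035) and Ramp2 (0.050). Over 4 libraries in 2 groups, such a profile holds little more than the size of the difference between groups.

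GGACT is a common form of the sequence that the METTL3 complex methylates at its A. In the longest coding transcript (GENCODE M21) it was found 5 times in Elavl4, 3 times each in Elavl2 and Elavl3, 6 times in Nova1, 5 times in Msi2, 4 times in Elavl1 and 1 time in each Ptbp gene. The lowest rates were those of Ptbp2 and Ptbp1, at 0.265 and 0.316 per kilobase. The called members ranged from 0.598 per kilobase in Elavl3 to 1.21 in Elavl4. Rbfox2 and Msi1, which were not called, had the highest rates of the 10, 1.45 and 1.28. Of the called members only Elavl4 lay above the median of all tested genes. Over 11628 tested genes with a coding transcript the median was 1.05 per kilobase, and 92.3% held the motif at least once. Methylation was not measured in these libraries, and the rates are a description of the letters.

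Sequence shared between paralogues was small. Elavl2, Elavl4, Ptbp2, Msi1, Msi2, Rbfox2 and Nova1 had no stretch of 50 bases in their longest coding transcript in common with a transcript of another gene. Of the 4965 such stretches of Elavl3, 218 occur in other transcripts and 3 of these in another of the listed family genes. Ptbp1 had the largest share of the 10, 705 of 3120 or 22.6%, found in transcripts of 5 other genes, among them Gm4900 and Gm18815 in the same orientation, so its level is uncertain for that reason as well. In Elavl1 155 of 5694 were shared, all with a gene on the other strand.

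Beyond the 10 genes, other regulators of splicing mostly did not pass. Of 19 listed genes 15 were tested, and 2 were lower, 0 higher and 13 not called (limma, adjusted p below 0.05; 4 not tested), with a median log2 fold change of -0.03. Unadjusted p-values under 0.05 were found for 3 lower and 3 higher genes in limma. Over all tested genes 4.87% were called lower and 4.44% higher. In 11 of the 19 listed genes, untested ones included, both Dox libraries lay below both untreated ones, and in 3 above. Over all tested genes the shares were 26.9% and 26.5%. Both called genes, Celf3 and Celf5, belong to the CELF members known from brain. Celf3 was listed at 2.93 and 3.64 FPKM without Dox and at 0.53 and 0.46 FPKM with it (log2 fold change -1.51, adjusted p = 0.00277 in limma). Celf5 went from 2.18 and 2.94 to 0.76 and 1.09 FPKM (adjusted p = 0.0339), a call that was lost when any 1 library was left out, at adjusted p-values from 0.0527 to 0.147. The Dox means of Celf3 and Celf5 were 0.495 and 0.925 FPKM, so both were tested through the group where they are high. Celf1, Celf2 and Celf4 were tested and not called. Of the exonic bases of Celf5 8.14% overlap a gene on the other strand. Srrm4 and Srrm3, which promote neuronal microexons, fell below the mean required for testing. Srrm4 was listed at 1.42 and 1.15 FPKM without Dox and at 0.15 and 0.14 FPKM with it, and Srrm3 at 1.09 and 1.21 against 0.29 and 0.14 FPKM. Without the filter Srrm4 passed (adjusted p = 0.0369 in limma) and Srrm3 did not (0.0542).

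Regulators of translation and stability, such as the Fmr1, Cpeb, Pum, Stau and Pcbp genes, had 0 of 21 tested members called in either direction, with a median log2 fold change of 0.07. At an unadjusted p below 0.05 in limma 3 were higher and 0 lower. Among partners of the members, 1 of 9 tested genes was called. It was Gap43, a growth cone gene whose message Elavl4 is known to stabilise, at 38.66 and 42.18 FPKM without Dox and 9.28 and 6.94 FPKM with it (log2 fold change -2.20, adjusted p = 6.88e-04 in limma). Rest, the repressor of neuronal genes, was at 8.4 and 8.05 FPKM without Dox and 9.61 and 11.94 FPKM with it (adjusted p = 0.163). Transcripts hosting miR-124, a microRNA known to act on Ptbp1, are listed for 2 loci. Mir124-2hg was at 15.01 and 16.94 FPKM without Dox and at 19.89 and 19.29 FPKM with it (adjusted p = 0.128), and Mir124a-1hg, below the mean required for testing, at 0.57 and 0.58 against 0.04 and 0.1 FPKM. Without the filter Mir124a-1hg passed (adjusted p = 0.0361 in limma).

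Most tested neuron markers were lower with Dox, as were Elavl2, Elavl3, Elavl4, Nova1, Celf3 and Celf5. Of 10 neuron markers 7 were tested, and 6 were lower and 1 higher, with a median log2 fold change of -1.24. Stmn2, which regulates microtubules in growing axons, went from 11.47 and 10.55 to 2.27 and 2.29 FPKM, and Tubb3, the neuronal tubulin, from 118.53 and 116.78 to 75.76 and 79.83 FPKM. Map2, Ina, Nefl and Nefm, all of the neuronal cytoskeleton, were the others called lower, with log2 fold changes from -1.70 in Map2 to -1.13 in Nefl. The 1 higher gene was Syt1, a synaptic vesicle protein, at 0.56 and 0.58 against 2.13 and 2.17 FPKM. Summed over the 10 genes the level was 161.39 and 164.65 FPKM without Dox and 91.06 to 95.51 FPKM with it, most of it Tubb3. All 7 tested markers of neurogenic progenitors, among them Neurog2 (log2 fold change -2.15), were also lower. Their part in the changes of the RNA-binding protein genes was not tested.

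Markers of neural crest, which also gives rise to neurons, were lower in 3 of 4 genes, and their summed level was 29.14 and 29.91 FPKM without Dox and 4.85 to 5.69 FPKM with it. Sox10, a defining marker, was at 12.79 and 13.35 FPKM without Dox and at 0.82 and 0.43 FPKM with it. Of 4 glia markers 1 was tested and called lower, Olig2, a factor of oligodendrocyte and motor neuron precursors, at 4.97 and 3.74 FPKM without Dox and at 0.18 and 0.21 FPKM with it (log2 fold change -2.15, adjusted p = 0.00111 in limma). The glia list summed to 4.39 to 5.56 FPKM in the untreated libraries, most of it Olig2, and to 0.92 to 1.1 FPKM in the Dox libraries. Its other genes were not lower as a set. Aldh1l1 was at 0.55 and 0.63 FPKM without Dox and at 0.8 and 0.68 FPKM with it. Gfap and S100b reached at most 0.12 FPKM, and their groups overlapped. The Dox means of Sox10, Olig2 and Neurog2 were under 1 FPKM, so these genes were tested through their untreated libraries. General neural progenitor markers were lower in 5 of 7 genes, with a median log2 fold change of -1.14. The lower ones were Fabp7 (log2 fold change -3.49), Sox1 (-2.12), Hes5 (-1.18), Nes (-1.14) and Vim (-0.97). Notch1 was not called. Sox2 was higher, at 109.56 and 97.34 FPKM without Dox and 139.25 and 163.64 FPKM with it (adjusted p = 0.0347 in limma). The call of Sox2 was lost when any 1 library was left out. Retinal progenitor markers were higher in 5 of 6 genes and pigment epithelium markers in 3 of 3 tested. Pluripotency and epithelium markers had 0 of 5 and 0 of 4 called in limma, with 1 of each below an unadjusted p of 0.05, and mesendoderm markers summed to at most 1.07 FPKM. The part of these cell types in the members' values was not tested.

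**Figure D4:**
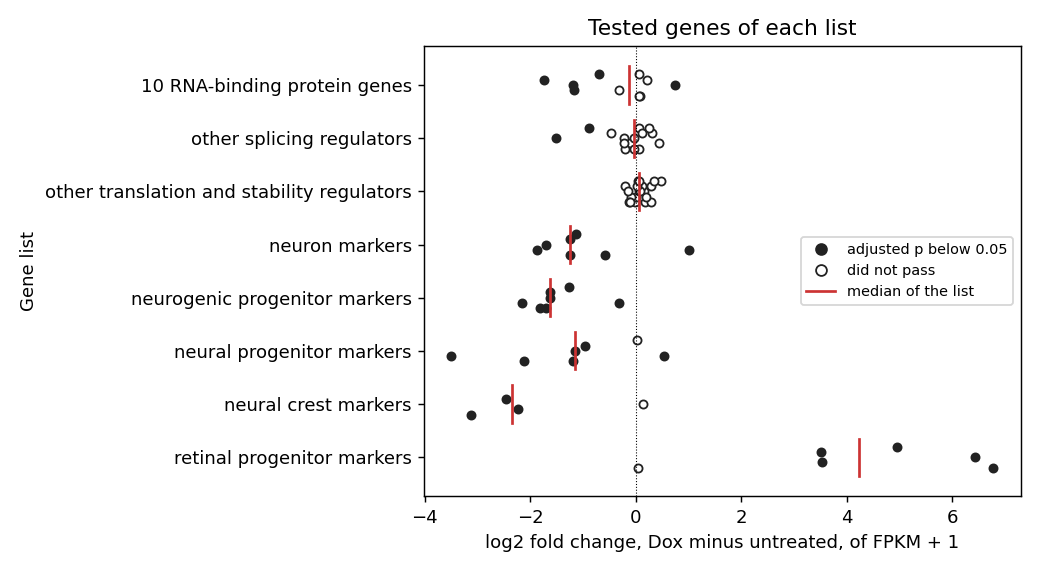
Log2 fold change of FPKM + 1, Dox minus untreated, of each tested gene in 8 lists. Filled points passed an adjusted p below 0.05, open points did not, and red lines are list medians; neuron, neurogenic and neural crest markers lie mostly to the left with the neuronal Elavl genes, and the regulators of translation have a median of 0.07.

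**Figure D5:**
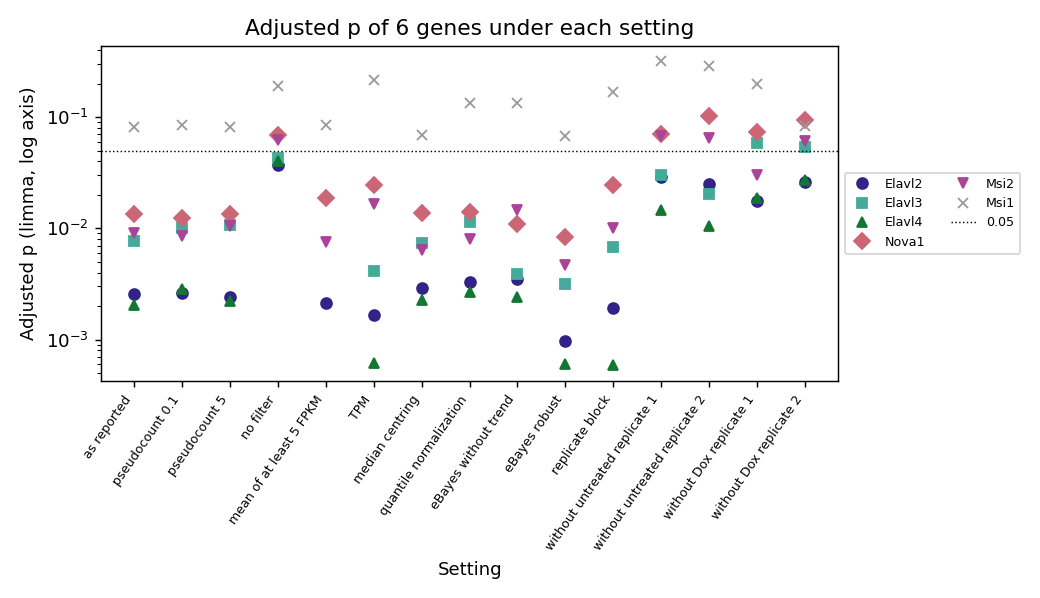
Adjusted p in limma (log axis) for Elavl2, Elavl3, Elavl4, Nova1, Msi2 and Msi1 as reported and under each of 14 other settings, with the threshold of 0.05 dotted. Elavl2 and Elavl4 lie under the line wherever tested and Msi1 above it in every setting, while Nova1, Msi2 and Elavl3 cross it when single libraries are left out, Nova1 and Msi2 also with no filter.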

How the data were processed

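Gene expression was measured by paired-end sequencing of poly(A) RNA in 4 libraries. The authors deposited 1 FPKM value per gene and library, rounded to 2 decimals and not pooled. STAR, Cuffdiff and the build mm10 are named in the submitters' processing notes; annotation release, strand setting and versions are not given in the sources used here. Libraries were grouped by the treatment label.

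Values were transformed to log2(FPKM + 1), which understates the change of low genes. The whole table was fitted with limma 3.58.1 (R 4.3.3; lmFit, eBayes with an intensity trend, no covariate) for genes averaging 1 FPKM or more. P-values are two-sided, adjusted by Benjamini-Hochberg over those genes, with a threshold of 0.05. The fit was run on simulated data with normal errors on the log2 scale, as the fit itself assumes. That run checks the code and says nothing on whether the calls are right. The 10 members and all lists were chosen with earlier results of these data known. The naming rule took all members and the family paralogues, the called genes of each list (up to 8), and the 2 closest profiles for the 3 called members with the largest change. The text departs from it for the cell type markers, of which only some are named beside the counts; some single-gene results are not reported here.

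Depth was fitted from the steps of low FPKM values in genes with 1 transcript (GENCODE M21, GRCm38), where 89.3% to 90.5% of low values fell within 0.2 of a whole fragment count. Fragment numbers are approximate. The alternatives were other pseudocounts, filters, scalings and variance settings, a replicate block, and each library left out.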

Additional observations from a re-analysis of the deposited data

How the results depend on the processing

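Over all tested genes 1297 were called, against 745 without a filter and 821 with a minimum of 5 FPKM. Without a filter, 0 members were called higher with Dox in limma (Msi2 at an unadjusted p of 0.0021), against 1. With a minimum of 5 FPKM, 2 members were called lower against 4, because Elavl3 and Elavl4 were no longer tested. Leaving out single libraries gave 593 to 697 calls over all genes, 0 to 1 members higher and 2 to 3 lower; these fits have 1 library in a group, which is assumed to vary like the other group's. Ptbp2, which never passed, ranged from -0.038 without untreated replicate 1 to 0.148 without untreated replicate 2. Elavl3 lost its call without Dox replicate 1 or 2 (adjusted p = 0.058 and 0.0537 in limma), and the losses of Nova1 and Msi2 stand with their results. Elavl2 passed in all 14 alternatives and Elavl4 in the 13 that tested it. Nova2 passed with median centring (adjusted p = 0.0471), without the trend (0.0209) and with robust estimation (0.0373). The cause was not tested, except where fewer genes or libraries entered. A replicate block gave 1134 calls over all genes, 4 members lower and 1 higher, although nothing shows that the numbers pair libraries (r = -0.043 between the replicate differences). Rescaling to TPM shifted the overall median most, by 0.0206.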
